A study of Mus musculus with 12 samples.

Results

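The genes described here are those of cholesterol synthesis and of the sensing, transport and efflux of sterols, read in brown adipose tissue of mice with or without Sel1L in their adipocytes. Members were named by gene symbol, 31 in all, and a member was used where a probe set of the array carried its symbol and no other, taking the probe set with the highest mean over the 12 arrays where a gene had several. That left 27 genes of the 22180 with such a probe set. Acat2, Idi1, Nr1h2 and Soat1 were skipped, having no such probe set here. Of the 27 genes, 16 encode enzymes of the synthesis route, 4 belong to the SREBP machinery that senses sterols, 3 to intracellular sterol transport, and 4 to sterol efflux and its control by the LXR receptors. The list does not cover every gene of the pathway.

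The study crossed Sel1L f/f mice on the C57BL/6J background with Adiponectin-Cre mice, in which a transgene drives Cre recombinase in adipocytes. Controls were Sel1L f/f littermates, given as wildtype in the labels, and adipocyte-specific Sel1L-deficient mice gave the arrays labelled knockout, called labelled knockouts for short. Mice of each genotype were kept without food for 5 h, either at room temperature or at 4 °C, which gave 4 groups of 3 arrays. The labels do not state the age of the mice. Other cells of the tissue keep Sel1L, and in whole tissue fewer cells of a type and less RNA per cell cannot be told apart. Values are log2 expression of a probe set, normalized by the authors, so that a difference of 1 is a doubling of the signal. Values given in a run of 3 are replicates 1, 2 and 3 of a group.

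Sel1L works with the ubiquitin ligase Hrd1, and the pair removes misfolded proteins from the endoplasmic reticulum (ER). The later steps of cholesterol synthesis take place in the ER membrane. Acetyl-CoA is joined into mevalonate and farnesyl diphosphate, farnesyl units are condensed to squalene, squalene is closed to lanosterol, and lanosterol is trimmed to cholesterol. When ER sterol is scarce, SCAP carries the transcription factor SREBP-2 out of the ER to be cleaved, and SREBP-2 then activates most genes of the route. When sterol is plentiful, the Insig proteins hold SCAP in the ER. Oxidized sterols activate the LXR receptors, which raise genes of sterol export.

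Sel1l itself stood at 7.37, 6.96 and 7.23 in controls, against 6.18, 6.09 and 5.92 in labelled knockouts at room temperature (log2 difference -1.12 ± 0.14 SE, n = 3 per group, adjusted p = 0.00114, limma). At 4 °C it stood at 6.99, 6.69 and 7.04 in controls, against 6.90, 6.73 and 6.54 in labelled knockouts, and the groups overlapped (-0.19 ± 0.14, adjusted p = 0.605). Its reading therefore did not check the genotype label at 4 °C, and positions of its probes were not used here. Brown adipocyte markers were bright throughout, with Ucp1 at 12.38 to 12.83, and of 12 such markers the coactivator Ppargc1a and the adipocyte regulator Pparg were lower in the labelled knockouts at 4 °C (-1.42 and -0.78, adjusted p = 0.00473 and 0.0144). Control replicate 3 at room temperature carries 4 °C in its source name and room temperature in its title. It read 8.17 for Ppargc1a, which the cold induces, where the other controls at room temperature read 8.08 and 7.26 and those at 4 °C 10.94 to 11.49. Dio2 and Elovl3 were also higher in the cold in controls. For Dio2 this array read 8.60, where the other controls read 8.92 and 7.42 at room temperature and 10.81 to 11.18 at 4 °C. For Elovl3 it read 9.49, where they read 9.64 and 9.46 at room temperature and 11.32 to 11.40 at 4 °C. Skeletal muscle markers varied widely, with an array mean over 14 genes of 6.40 to 7.26 in controls and 3.01 to 6.38 in labelled knockouts at room temperature, and of 4.91 to 7.94 and 2.70 to 6.68 at 4 °C. None of the 14 was called between genotypes at either temperature (limma), and 9 lay lower at room temperature and 0 at 4 °C at an unadjusted p under 0.05. Macrophage markers, which matter here because macrophages export much sterol, had 0 of 12 called between genotypes at either temperature (limma, and 0 at an unadjusted p under 0.05), with array means of 5.10 to 6.00 in controls and 5.36 to 5.67 in the arrays labelled knockout.

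The stretches before the annotated starts of 6 enzymes are shown because all 6 read higher in the arrays labelled knockout at 4 °C. Fdps and Sqle were called higher there too but had no promoter entry. The stretches are the 150 bases up to the start, on the gene's strand, from RefSeq on build GRCm38.p6. Hmgcs1 lies at chr13:119690201-119690350 (plus strand), Mvd at chr8:122443423-122443572 (minus), Lss at chr10:76531455-76531604 (plus), Cyp51 at chr5:4104698-4104847 (minus), Msmo1 at chr8:64733579-64733728 (minus) and Ebp at chrX:8193513-8193662 (minus). Capitals mark matches to CCAAT, the NF-Y box that often stands beside SREBP sites, which reads ATTGG on the other strand, and to TCACNCCAC, a core of the sterol regulatory element bound by SREBP.
Hmgcs1: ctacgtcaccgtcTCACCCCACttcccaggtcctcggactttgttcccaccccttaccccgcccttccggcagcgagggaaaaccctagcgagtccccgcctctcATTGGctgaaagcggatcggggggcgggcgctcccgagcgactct
Mvd: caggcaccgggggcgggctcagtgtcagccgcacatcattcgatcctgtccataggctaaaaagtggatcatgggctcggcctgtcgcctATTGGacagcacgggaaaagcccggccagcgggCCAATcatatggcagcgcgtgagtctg
Lss: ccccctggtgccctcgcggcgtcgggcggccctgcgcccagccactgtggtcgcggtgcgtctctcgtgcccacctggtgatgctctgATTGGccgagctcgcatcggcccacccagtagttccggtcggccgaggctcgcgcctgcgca
Cyp51: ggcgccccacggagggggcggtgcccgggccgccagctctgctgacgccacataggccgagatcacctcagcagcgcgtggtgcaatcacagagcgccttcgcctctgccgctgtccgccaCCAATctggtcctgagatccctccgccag
Msmo1: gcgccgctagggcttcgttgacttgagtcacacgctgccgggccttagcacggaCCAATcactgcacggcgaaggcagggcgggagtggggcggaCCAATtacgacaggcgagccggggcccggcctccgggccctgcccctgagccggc
Ebp: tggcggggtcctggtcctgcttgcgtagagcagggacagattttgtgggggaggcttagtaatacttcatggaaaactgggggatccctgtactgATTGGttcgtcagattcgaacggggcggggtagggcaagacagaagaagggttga

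CCAAT lay in the 250 bases before the start in 18 of the 28 windows of the 21 measured members with an entry (64.3%), and in 33.8% of all 32851 windows of the same length, on either strand. The core TCACNCCAC was found in 1 member window, that of Hmgcs1, at position -137 from the annotated start, and in 1.05% of all windows. It overlaps none of the CCAAT boxes there. TGACGTGG, an element of the ER stress factors XBP1 and ATF6, was found in 0 member windows and in 0.563% of all. Several members have more than 1 window. CCAAT boxes stood near the start both in members that rose and in members that did not, such as Mvk and Hsd17b7, as the plot of motif positions shows. A match is a string of letters and not a site of binding.

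**Figure D1:**
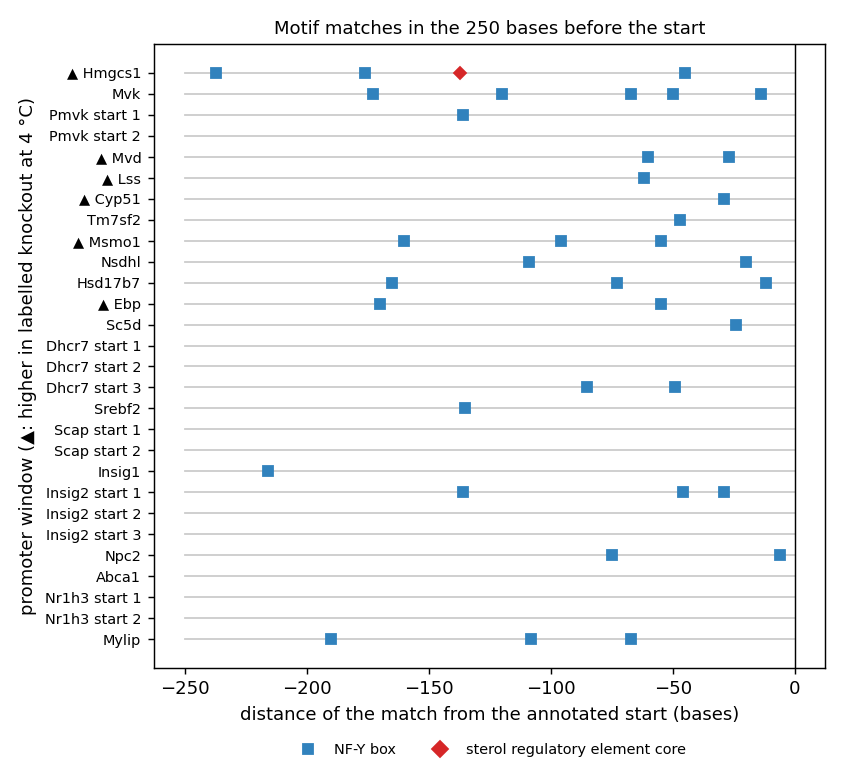
Each line is 1 promoter window of a measured member, with the distance from the annotated start in bases on the x axis; squares are NF-Y boxes and the diamond is the sterol regulatory element core. Triangles mark genes higher in the arrays labelled knockout at 4 °C, and the diamond stands in the window of Hmgcs1.

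At room temperature, 4 of the 16 measured synthesis enzymes rose in the arrays labelled knockout and 0 fell (limma, with 7 higher and 1 lower at an unadjusted p under 0.05). Over all 27 members, 5 rose (18.5%) and 0 fell, beside 1.29% of all 23521 probe sets higher and 0.429% lower. The members lay between percentiles 55.2 and 98.4 of mean signal. No share of all probe sets, here or below, was matched for brightness. The enzymes had a median difference of 0.35 on the log2 scale, and all probe sets had one of -0.01. The 4 enzymes were Fdps, Sqle, Lss and Cyp51, which act in that order from farnesyl diphosphate to the first step after lanosterol.

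Fdps, which makes farnesyl diphosphate, stood at 4.67, 4.57 and 4.47 in controls, against 5.60, 5.88 and 5.63 in labelled knockouts. Each array labelled knockout stood about 1 log2 unit above the controls, a 2.20-fold rise (1.13 ± 0.20 SE, n = 3 per group, adjusted p = 0.0127). Sqle, squalene epoxidase, which many regard as a second control point of the route, stood at 3.29, 2.73 and 3.62 in controls, against 4.53, 5.28 and 4.40 in labelled knockouts (2.87-fold, 1.52 ± 0.23, adjusted p = 0.00451). The groups did not overlap. The Sqle signal of these controls was fairly dim, with a mean of 3.21 beside the median over probe sets of 2.27. Lss, which closes the ring to lanosterol, read 5.00, 4.74 and 4.87 against 5.62, 6.15 and 5.88 (2.02-fold, 1.01 ± 0.16, adjusted p = 0.00473). Cyp51, the lanosterol demethylase, read 4.05, 3.24 and 3.73 against 4.66, 5.08 and 4.62 (2.17-fold, 1.11 ± 0.20, adjusted p = 0.0129). Here too the lowest array labelled knockout lay above the highest control.

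Fdft1, squalene synthase, stands between Fdps and Sqle in the route and lay on the other side. It stood at 8.90, 9.39 and 9.00 in controls, against 6.84, 7.86 and 8.13 in labelled knockouts, without overlap, yet its difference of -1.48 ± 0.38 did not pass the test (adjusted p = 0.0741). The remaining enzymes were not called. Hmgcs1, which makes HMG-CoA, read 9.40, 8.91 and 9.37 against 9.68, 9.59 and 9.70 (0.43 ± 0.14, adjusted p = 0.165). Ebp, the sterol isomerase, read 5.86, 5.98 and 5.82 against 6.08, 6.48 and 6.28 (0.40 ± 0.17, adjusted p = 0.339). Neither gene's groups overlapped. Pmvk read 5.89, 6.18 and 6.03 against 5.86, 6.31 and 6.12, and Mvd 2.99, 3.38 and 2.57 against 2.90, 3.36 and 3.11. Msmo1 read 4.25, 3.75 and 3.78 against 4.14, 4.85 and 4.06, and Dhcr7 5.53, 5.20 and 5.36 against 4.89, 5.09 and 5.09. In Pmvk, Mvd and Msmo1 the groups overlapped, and in Dhcr7, Mvk and Hsd17b7 they did not. The share of all probe sets without overlap was not counted. Pmvk, Mvd, Msmo1, Dhcr7, Tm7sf2, Sc5d, Nsdhl, Mvk and Hsd17b7 differed by -0.34 to 0.42.

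The 5 enzymes called in no comparison are given by their range over all 12 arrays. Mvk, mevalonate kinase, ranged from 2.78 to 4.53. Tm7sf2, a sterol reductase, ranged from 3.65 to 4.41, and Hsd17b7, a ketosterol reductase, from 4.78 to 5.89. Nsdhl, a sterol dehydrogenase, ranged from 4.68 to 7.03, and Sc5d, a sterol desaturase, from 6.27 to 7.87. Tm7sf2 thus varied least and Nsdhl most of the 5.

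**Figure D2:**
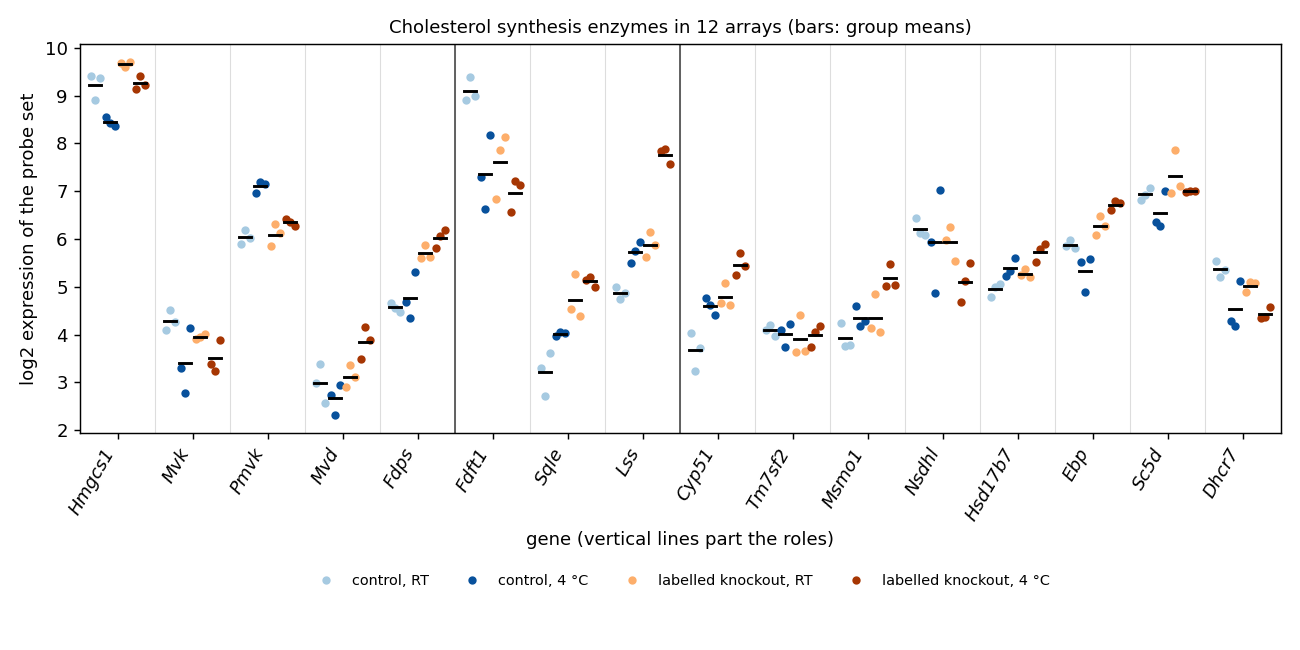
Log2 expression of the 16 measured synthesis enzymes, in route order, with 1 point per array, bars at group means and 3 arrays per group. Lss reads 7.56 to 7.87 in the arrays labelled knockout at 4 °C, above every other array, and Fdft1 is highest in the controls at room temperature.

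Among the sterol handling genes at room temperature, Abcg1 rose and no other was called. Abcg1, an LXR target that exports sterol from cells, stood at 5.17, 4.98 and 5.43 in controls, against 6.96, 6.44 and 7.00 in labelled knockouts. This was a 3.05-fold rise with a wide gap between the groups (1.61 ± 0.18, adjusted p = 0.000327). Npc1, which moves cholesterol out of lysosomes, read 7.25, 7.29 and 7.78 against 7.76, 8.56 and 8.56 and just missed the test (0.85 ± 0.20, adjusted p = 0.0581), with replicate 1 of the arrays labelled knockout at the level of the highest control. The SREBP genes did not pass. Srebf2, the gene of SREBP-2, differed by 0.50 (95% interval -0.03 to 1.03), Insig1, itself an SREBP target, by 0.12 (-0.31 to 0.55), Insig2 by 0.10 (-0.13 to 0.34) and Scap by -0.13 (-0.40 to 0.14). Abca1, the other LXR-driven exporter, differed by -0.06 (-0.37 to 0.26), and Nr1h3, the gene of LXR alpha, by -0.18 (-0.54 to 0.17). Mylip, an LXR target that marks lipoprotein receptors for breakdown, stood at 7.74, 7.82 and 7.84 in controls, against 7.41, 7.39 and 7.43 in labelled knockouts. Its groups did not overlap, but the difference of -0.39 ± 0.20 was not called (adjusted p = 0.434).

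Without control replicate 3, whose labels conflict, 5 members were still higher, with Fdps lost and Npc1 gained. With it among the 4 °C controls, Fdps, Lss and Cyp51 lost their calls (adjusted p = 0.0721, 0.143 and 0.149), and 2 members remained higher. Sqle and Cyp51 lost theirs when the 6 arrays compared were fitted alone (adjusted p = 0.0558 and 0.0656), and Fdps and Cyp51 without knockout replicate 2 (both adjusted p = 0.0543), which left 3 members higher. With the muscle marker mean as a covariate, Cyp51 was not called (adjusted p = 0.0894) and the other 4 were.

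At 4 °C, 8 of the 16 enzymes were higher in the arrays labelled knockout and Pmvk was lower. Over all members 10 of 27 were higher (37%) and 1 lower (3.7%), beside 3.61% of all probe sets higher and 2.19% lower. The enzyme median was 0.63, against -0.01 over all probe sets. The higher enzymes spanned the route, with Hmgcs1, Mvd and Fdps before squalene, Sqle and Lss around it, and Cyp51, Msmo1 and Ebp after lanosterol. The 5 members that rose at room temperature were all among the 10, which is 50% of the longer list.

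Lss differed most among the enzymes. It stood at 5.49, 5.75 and 5.93 in cold controls, against 7.83, 7.87 and 7.56 in labelled knockouts, 4.10-fold higher (2.03 ± 0.16 SE, n = 3 per group, adjusted p = 4.61e-06). The gap between the groups was wider than the whole range within either. Ebp read 5.52, 4.88 and 5.57 against 6.61, 6.79 and 6.75, which is 2.63-fold (1.39 ± 0.17, adjusted p = 0.000245). Fdps read 4.67, 4.34 and 5.32 against 5.81, 6.06 and 6.20 (2.37-fold, 1.25 ± 0.20, adjusted p = 0.00236), with control replicate 3 nearest to the arrays labelled knockout. Mvd, the mevalonate diphosphate decarboxylase, read 2.74, 2.32 and 2.96 against 3.49, 4.16 and 3.88 (2.25-fold, 1.17 ± 0.23, adjusted p = 0.00894). These controls lie near the median over probe sets of 2.27, so the signal of Mvd is dim.

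Hmgcs1 stood at 8.55, 8.43 and 8.37 in controls, against 9.15, 9.41 and 9.22 in labelled knockouts (1.75-fold, 0.81 ± 0.14, adjusted p = 0.00292). The groups were tight and apart. Sqle read 3.97, 4.06 and 4.03 against 5.15, 5.20 and 4.99 (2.14-fold, 1.09 ± 0.23, adjusted p = 0.0149). Cyp51 read 4.76, 4.61 and 4.42 against 5.24, 5.70 and 5.44 (1.82-fold, 0.86 ± 0.20, adjusted p = 0.0234). Msmo1, which removes methyl groups after lanosterol, read 4.60, 4.18 and 4.28 against 5.01, 5.47 and 5.04 (1.77-fold, 0.82 ± 0.22, adjusted p = 0.0454). In these 3 genes every array labelled knockout was above every control, by less than in Lss or Ebp.

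Pmvk, phosphomevalonate kinase, moved the other way. It stood at 6.96, 7.19 and 7.15 in controls, against 6.43, 6.35 and 6.28 in labelled knockouts, 1.68-fold lower (-0.75 ± 0.13, adjusted p = 0.00385). At room temperature the same gene differed by 0.06 ± 0.13 (adjusted p = 0.911). Its neighbours in the route, Mvk and Mvd, differed by 0.10 ± 0.28 and 1.17 ± 0.23 at 4 °C. The other enzymes were not called, with differences of -0.85 ± 0.41 for Nsdhl, -0.40 ± 0.38 for Fdft1, -0.10 ± 0.20 for Dhcr7, -0.03 ± 0.20 for Tm7sf2, 0.35 ± 0.13 for Hsd17b7 and 0.45 ± 0.23 for Sc5d. Nsdhl and Fdft1 varied widely in the controls at 4 °C, at 5.93, 4.88 and 7.03 and at 7.30, 6.62 and 8.18. Fdft1 read 6.56, 7.21 and 7.13 in the labelled knockouts, and Dhcr7 4.28, 4.19 and 5.13 in the controls against 4.35, 4.37 and 4.58.

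**Figure D3:**
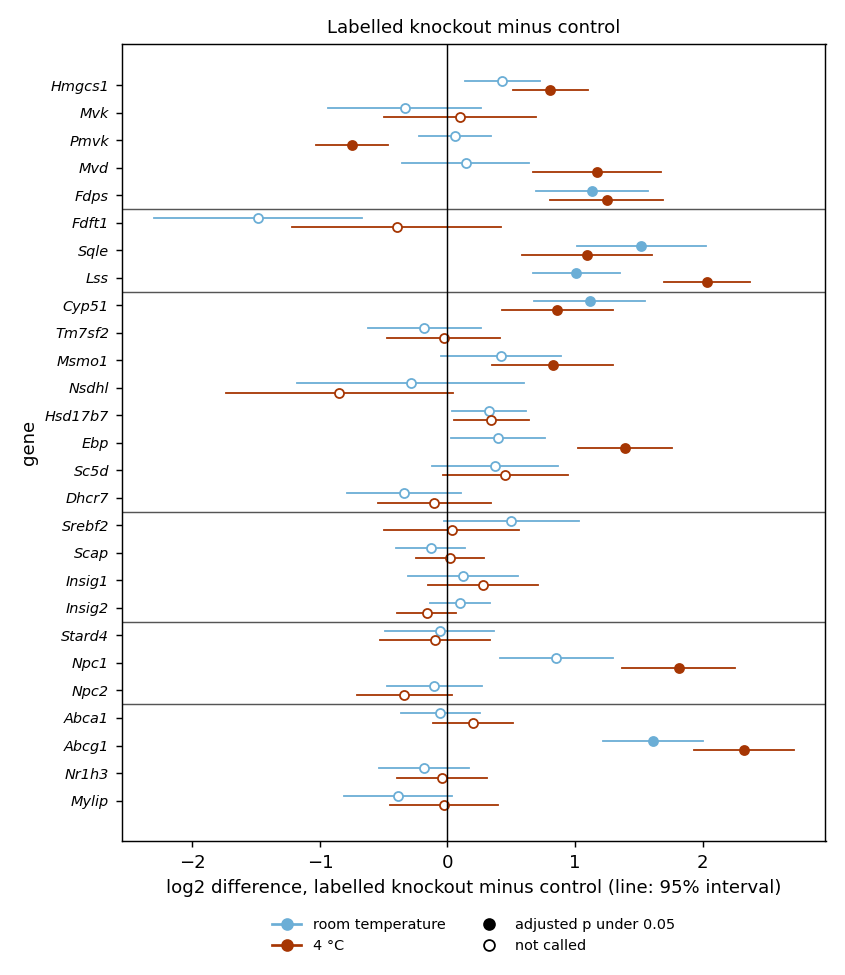
Log2 difference of each member, labelled knockout minus control, at room temperature and at 4 °C, with 95% intervals from limma (3 arrays per group) and filled points where the adjusted p is under 0.05. Abcg1 has the largest differences, at 1.61 and 2.32, Npc1 is called at 4 °C only, and the intervals of the 4 SREBP genes cover 0 at both temperatures.

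Npc1 and Abcg1 were higher at 4 °C as well. Npc1 stood at 6.62, 6.71 and 6.84 in controls, against 8.62, 8.59 and 8.40 in labelled knockouts, 3.51-fold higher (1.81 ± 0.20, adjusted p = 0.000122). It has a second probe set, dim at a mean of 1.98, which differed by 0.18 (adjusted p = 0.693), and the mean of both gives 1.00 (adjusted p = 0.00214). Abcg1 read 4.97, 5.53 and 5.08 against 7.56, 7.46 and 7.53, 5.00-fold higher (2.32 ± 0.18, adjusted p = 4.62e-06), with the labelled knockouts close together. Npc2, the soluble partner of Npc1 in lysosomes, read 8.68, 8.65 and 9.16 against 8.48, 8.55 and 8.45 and was not called (-0.34 ± 0.17, adjusted p = 0.36). Stard4, a carrier of free sterol, was dim at 2.42 to 3.34 over all arrays and differed by -0.10 ± 0.20.

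The regulators were not called at 4 °C either. Srebf2 stood at 5.92, 5.55 and 5.41 in controls, against 5.61, 5.57 and 5.80 in labelled knockouts, and differed by 0.03 (95% interval -0.50 to 0.56). Insig1 read 8.34, 8.55 and 9.18 against 8.86, 9.05 and 9.01, a difference of 0.28 (-0.15 to 0.71), with control replicate 3 the highest of all 6. Scap ranged from 5.33 to 5.90 over all 12 arrays and differed by 0.02 (-0.25 to 0.29). Insig2 read 5.53, 5.74 and 5.81 against 5.60, 5.50 and 5.49 and differed by -0.16 (-0.40 to 0.07), where at room temperature the labelled knockouts had read 5.46, 5.50 and 5.31. Of the LXR group, Abca1 read 7.16, 7.25 and 7.57 against 7.61, 7.29 and 7.69, a difference of 0.20 (-0.11 to 0.51), and in the labelled knockouts at room temperature 7.86, 7.68 and 7.84. Mylip read 6.54, 7.35 and 7.49 against 7.28, 6.95 and 7.06 (-0.03, interval -0.45 to 0.40). Nr1h3 ranged from 5.98 to 6.66 over all arrays and differed by -0.04 (-0.40 to 0.31). The groups overlapped in each of these genes. These intervals do not show that the levels were alike, since differences up to their bounds are compatible with these arrays.

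**Figure D4:**
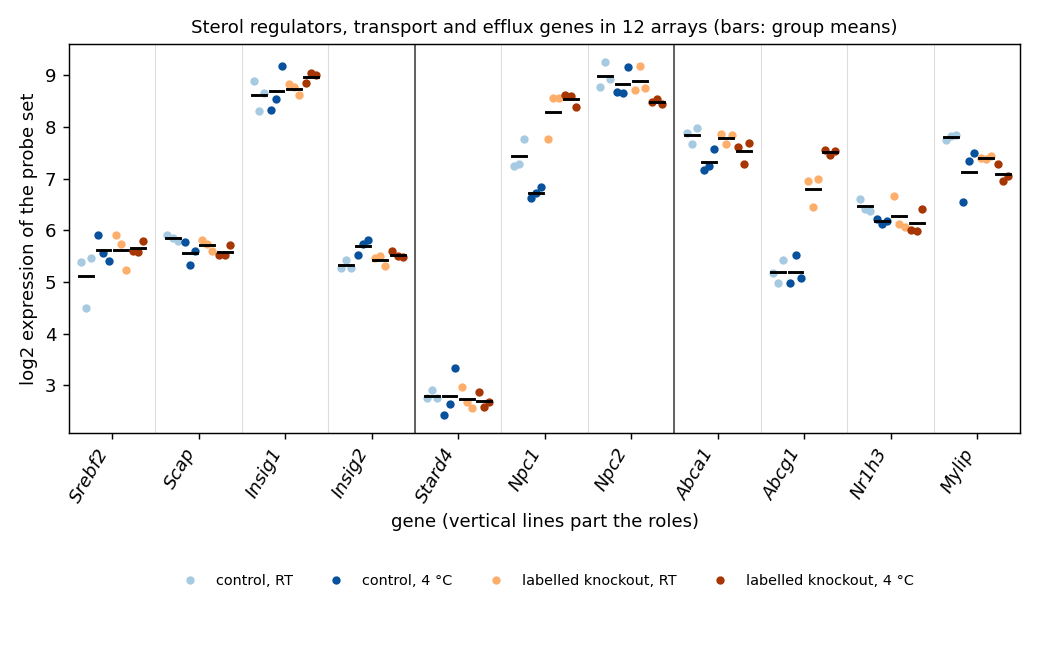
Log2 expression of the 11 measured genes of sterol sensing, transport and efflux, with 1 point per array, bars at group means and 3 arrays per group. Abcg1 reads 4.97 to 5.53 in controls and 6.44 to 7.56 in labelled knockouts, and Npc1 splits by genotype most clearly at 4 °C.

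Of the 10 higher members, Mvd, Fdps, Lss, Ebp, Npc1 and Abcg1 kept their calls under all 21 alternative settings. The count was lowest, at 7, without knockout replicate 2. The call of Msmo1 did not hold in 9 of the 12 fits without an array (highest adjusted p = 0.179), that of Cyp51 in 4 (0.104) and that of Sqle in 3 (0.0622). Hmgcs1 and Pmvk lost theirs with the array of conflicting labels among the 4 °C controls (adjusted p = 0.187 and 0.363). With the muscle marker mean as a covariate, Msmo1 was not called and the other 9 were.

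In 3 of the 4 groups the enzymes were uneven between arrays, counted as the array that read highest or lowest of the 3 for each of the 16 enzymes. Replicates 1, 2 and 3 were highest for 0, 13 and 3 enzymes in the labelled knockouts at room temperature, for 3, 2 and 11 in the cold controls, and for 1, 8 and 7 in the labelled knockouts at 4 °C. In the controls at room temperature they were highest for 7, 6 and 3, and lowest for 5, 6 and 5. Over all probe sets each array of the 12 was the highest of its group in 30.3% to 35.5%. The mean of the 16 enzymes was 5.41, 5.86 and 5.53 in the labelled knockouts at room temperature, 5.23, 4.97 and 5.58 in the cold controls, and 5.62, 5.86 and 5.85 in the labelled knockouts at 4 °C. The muscle marker means of the same arrays were 6.38, 3.01 and 3.82, then 5.48, 4.91 and 7.94, then 2.70, 6.68 and 5.89. The array with the highest enzyme mean thus had the least muscle signal in the first of these groups and the most in the other two. Beyond the covariate, the part of muscle in these values was not tested. Enzymes of 1 array share its RNA and are not independent.

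The cold response asks what 4 °C changed within a genotype. It shares the arrays of the genotype comparisons, so the values are set side by side and not counted as further evidence. In the controls 5 of 27 members rose (18.5%, with 4.85% of all probe sets higher) and 6 fell (22.2%, with 6.23% lower). In the arrays labelled knockout 3 rose (11.1%, with 4.32% higher) and 0 fell (with 4.7% lower, and 3 members lower at an unadjusted p under 0.05, limma). All members are brighter on average than the median probe set, so these shares do not compare like with like. The route did not move as a unit in the controls: 4 enzymes rose and 3 fell.

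In the controls, Pmvk rose by 1.07 ± 0.13 on the log2 scale (n = 3 per group, adjusted p = 0.000367), from 6.03 to 7.10 on average. Cyp51 (0.93 ± 0.20, adjusted p = 0.0102), Lss (0.85 ± 0.16, adjusted p = 0.00398), Sqle (0.81 ± 0.23, adjusted p = 0.0438) and Insig2 (0.37 ± 0.11, adjusted p = 0.0442) rose too. Insig2 moved from 5.27, 5.43 and 5.26 to 5.53, 5.74 and 5.81, the smallest of these rises. Fdft1 fell by 1.73 (SE 0.38, adjusted p = 0.0106), from 8.90, 9.39 and 9.00 to 7.30, 6.62 and 8.18. Dhcr7, the reductase that acts at the end of the route, fell by 0.83 (SE 0.20, adjusted p = 0.0205), from 5.53, 5.20 and 5.36 to 4.28, 4.19 and 5.13. Hmgcs1 fell by 0.78 (SE 0.14, adjusted p = 0.00297), and every cold control lay below every control at room temperature in all 3 genes. Npc1 (-0.72 ± 0.20, adjusted p = 0.0411), Mylip (-0.67 ± 0.20, adjusted p = 0.044) and Abca1 (-0.52 ± 0.14, adjusted p = 0.0347) also passed, in the downward direction. The second, dim probe set of Npc1 differed by -0.26 (limma, adjusted p = 0.432), and with the mean of both Npc1 was not called. Mylip went from 7.74, 7.82 and 7.84 to 6.54, 7.35 and 7.49, and Abca1 from 7.89, 7.67 and 7.98 to 7.16, 7.25 and 7.57. In route order, Hmgcs1 fell, Pmvk rose, Fdft1 fell, Sqle, Lss and Cyp51 rose, and Dhcr7 fell.

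In the arrays labelled knockout, Lss rose by 1.88 ± 0.16 (adjusted p = 3.72e-05), Msmo1 by 0.83 ± 0.22 (adjusted p = 0.0335) and Abcg1 by 0.71 ± 0.18 (adjusted p = 0.0262). Pmvk differed by 0.26 ± 0.13 (adjusted p = 0.294), Hmgcs1 by -0.40 ± 0.14 (adjusted p = 0.0954), Fdft1 by -0.65 ± 0.38 (adjusted p = 0.388) and Npc1 by 0.24 ± 0.20 (adjusted p = 0.597). Of the 11 control calls, those of Hmgcs1, Pmvk, Fdft1, Lss and Cyp51 held when any single array was left out, and the other 6 did not. All 11 were lost with the array of conflicting labels among the 4 °C controls. That grouping follows its source name, while its Ppargc1a, Dio2 and Elovl3 values lay with the controls at room temperature. In the controls, 2 members in place of 6 fell without control replicate 1 or 3 at room temperature or without control replicate 1 or 2 at 4 °C. The 5 rises became 3 without control replicate 1 or 2 at room temperature, control replicate 2 or 3 at 4 °C, or, through the pooled spread, labelled knockout replicate 1 at room temperature or 2 or 3 at 4 °C. In the labelled knockouts, Msmo1 and Abcg1 lost their calls without any 1 of the 3 replicates at 4 °C, which left 1 rise, that of Lss, without replicate 2 or 3.

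**Figure D5:**
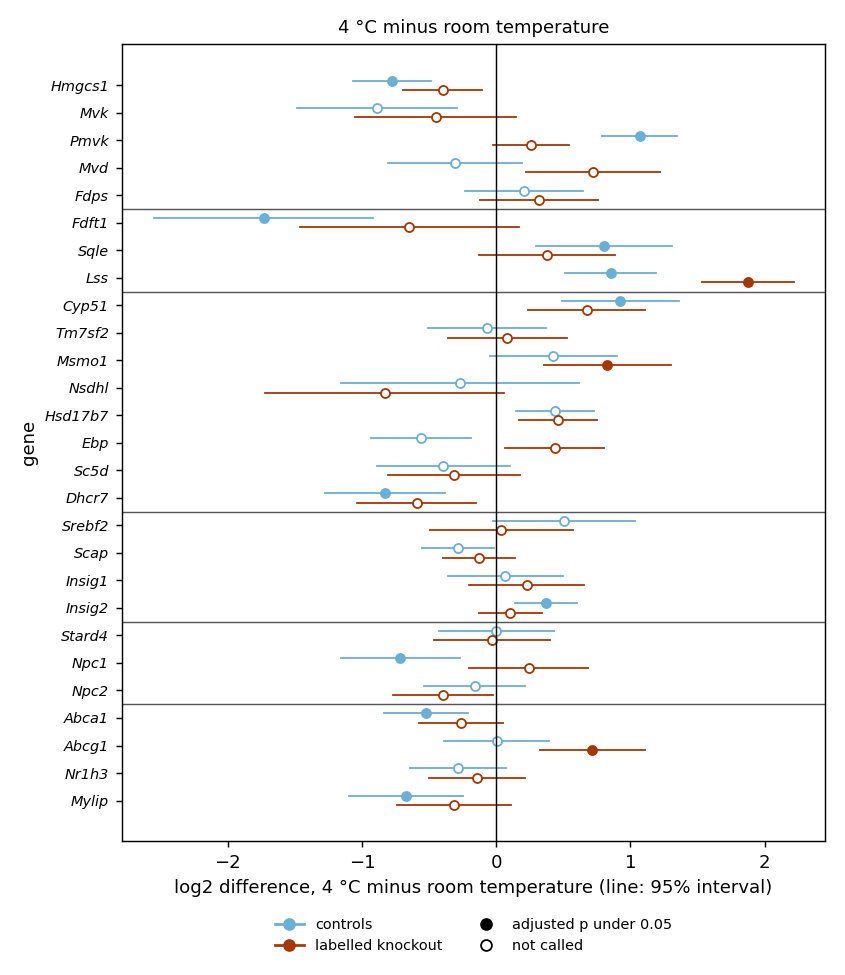
Log2 difference of each member, 4 °C minus room temperature, for controls and for labelled knockouts, with 95% intervals from limma (3 arrays per group) and filled points where the adjusted p is under 0.05. Pmvk is at 1.07 in controls and 0.26 in labelled knockouts, and Lss at 0.85 and 1.88.

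A difference in cold response between the genotypes, tested as the interaction, was called for 0 of 27 members (limma), beside 0.306% of all probe sets in either direction. At an unadjusted p under 0.05, 5 members had a positive and 1 a negative interaction. The share of all probe sets at that threshold was not counted. Those with the smallest p were Lss at 1.02 ± 0.22 (adjusted p = 0.0844), Pmvk at -0.81 ± 0.18 (adjusted p = 0.102) and Ebp at 1.00 ± 0.24 (adjusted p = 0.124). Mvd (1.03 ± 0.33), Npc1 (0.96 ± 0.29) and Abcg1 (0.71 ± 0.25) had adjusted p-values of 0.276, 0.246 and 0.354. The larger genotype differences of Lss, Ebp and Npc1 at 4 °C than at room temperature are therefore not shown to differ by this test. Ebp read lower in the cold in the controls (-0.56 ± 0.17, adjusted p = 0.0537) and higher in the arrays labelled knockout (0.44 ± 0.17, adjusted p = 0.153), and neither passed.

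A further list of 26 sterol genes gave the context, of which 22 were measured. The list was chosen with earlier results of these data known, so its shares are not independent support. In the arrays labelled knockout 2 rose at room temperature and 7 at 4 °C, which is 9.09% and 31.8% of the 22, beside the 1.29% and 3.61% of all probe sets. None fell at either (0 called by limma, with 2 lower at an unadjusted p under 0.05 at each). Dhdds and Nus1, the subunits of the enzyme that builds dolichol, the lipid carrier of N-glycans, from farnesyl diphosphate, were among the 7. Dhdds stood at 6.87, 7.15 and 6.92 in cold controls, against 8.36, 8.22 and 8.21 in labelled knockouts (1.28 ± 0.12, adjusted p = 2.15e-05), and Nus1 differed by 0.78 ± 0.11 (adjusted p = 0.00071). At room temperature Nus1 rose by 0.54 ± 0.11 (adjusted p = 0.0235) and Dhdds differed by 0.49 ± 0.12 (adjusted p = 0.061). The enzyme they form does not make sterol, and it draws on the product of Fdps.

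Osbp, which exchanges sterol between the ER and the Golgi, was higher by 1.32 ± 0.13 at 4 °C (adjusted p = 4.11e-05) and by 0.61 ± 0.13 at room temperature (adjusted p = 0.0359). Gramd1b, an ER protein that takes up plasma membrane cholesterol, differed by 0.93 ± 0.15 at 4 °C (adjusted p = 0.0018), and Erg28, thought to tether enzymes of the route, by 1.11 ± 0.15 (adjusted p = 0.000435). Tmem97, a binding partner of Npc1 (0.85 ± 0.19, adjusted p = 0.0203), and Cyp27a1, a sterol 27-hydroxylase (0.58 ± 0.14, adjusted p = 0.0343), completed the 7. Of the 7, Erg28 also fell in the cold in the controls, from 6.37, 6.39 and 6.12 to 4.92, 4.94 and 5.42 (-1.20 ± 0.15, adjusted p = 0.000363). Gramd1b (-0.88 ± 0.15, adjusted p = 0.00228, limma) and Cyp27a1 (-0.59 ± 0.14, adjusted p = 0.0194) fell in the controls too. Nus1 (0.68 ± 0.11, adjusted p = 0.00183) and Dhdds (0.41 ± 0.12, adjusted p = 0.0437) rose in them. Tmem97 (-0.54 ± 0.19) and Osbp (-0.02 ± 0.13) were not called in that comparison. The calls of Nus1 and Osbp at room temperature, and of Tmem97 and Cyp27a1 at 4 °C, were each lost without at least 3 single arrays in turn (adjusted p up to 0.0887, 0.123, 0.0924 and 0.118). With the array of conflicting labels among the 4 °C controls, Erg28, Gramd1b, Tmem97 and Cyp27a1 were not called between genotypes at 4 °C (adjusted p = 0.063, 0.0849, 0.0792 and 0.31). Nor were Nus1 and Osbp at room temperature (0.296 and 0.0664), and the fall of Erg28 in the cold was not called (0.133). The cold calls of Gramd1b, Cyp27a1, Nus1 and Dhdds in the controls were lost in that setting as well. Those of Cyp27a1 and Dhdds were also lost without some single arrays (limma, adjusted p up to 0.0828 and 0.169).

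Srebf1, the gene of SREBP-1, which serves fatty acid synthesis more than sterol synthesis, was not called between genotypes. It stood at 6.24, 5.42 and 6.07 in controls, against 6.39, 6.60 and 6.38 in labelled knockouts at room temperature, without overlap (0.54 ± 0.22, adjusted p = 0.302). At 4 °C it read 4.04, 4.23 and 4.42 against 4.12, 3.96 and 4.69 (0.03 ± 0.22, adjusted p = 0.977). The cold lowered it in both genotypes, by 1.68 (SE 0.22, adjusted p = 0.000585) in the controls and by 2.20 (adjusted p = 0.000126) in the arrays labelled knockout. The fall in the controls was not called with the array of conflicting labels among the 4 °C controls (adjusted p = 0.269). Mbtps1 and Mbtps2, the proteases that cleave SREBPs in the Golgi, were not called between genotypes, at -0.13 ± 0.13 and -0.20 ± 0.12 at 4 °C.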

How the data were processed

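RNA of brown adipose tissue from 12 samples, each titled as from a mouse, was hybridised to 12 whole-transcript arrays. Values are the deposited log2 expression values, for which the authors name RMA, per the submitters' processing notes, with no version given in the sources used here. RMA corrects background, quantile-normalizes and summarises probes, and it compresses differences near the background. No raw intensities entered.

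Titles gave the groups. Of 41345 probe sets, 23521 carried 1 gene symbol in the platform annotation and were tested. All 12 arrays entered 1 limma fit with a coefficient for each group (limma 3.58.1, R 4.3.3, with lmFit, contrasts.fit and eBayes, 8 residual and 4.45 prior degrees of freedom), with Benjamini-Hochberg adjustment over the 23521 probe sets. An adjusted p under 0.05 was a call. Shares of all probe sets were counted for calls only, so counts at an unadjusted p have no such share beside them. The fit was also run on simulated data with known changes. The simulated noise was independent between probe sets, so effects shared by the genes of an array were not covered. Nothing says how the mice were chosen. The p-values set a difference of group means against the spread of arrays within groups, pooled over the groups. The number of arrays limits precision. All members were named, with values in every array for those called and ranges or differences for the rest, and other sterol genes where called between genotypes. Srebf1, Mbtps1 and Mbtps2 are named outside that rule, having been chosen after their values were seen, for their place in SREBP processing. Members and lists were chosen with earlier results of these data known. Markers of brown adipocytes, macrophages, skeletal muscle, endothelium, fibroblasts and lymphocytes were read; red cell markers had no usable probe set. Between genotypes, 0 of 8 endothelial, 0 of 7 fibroblast and 0 of 5 lymphocyte markers were called at either temperature. Brown adipocyte markers had 0 of 12 called at room temperature and 2 lower at 4 °C. Promoters came from RefSeq. Replicate numbers were tested as a block: of 18 pairs with the same number, 2 had deviations correlated above 0.1, as had 6 of 36 pairs with different numbers.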

Additional observations from a re-analysis of the deposited data

How the results depend on the processing

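The 21 alternatives were 12 fits leaving out 1 array and 9 other settings, and of the 30 called member results none reversed. With the replicate block, 26 of the 30 calls held, and members numbered 5 higher and 0 lower at room temperature, 9 and 1 at 4 °C, 4 and 6 in the cold in controls, and 4 and 0 for labelled knockouts. The labels do not say whether arrays with the same replicate number belong together. Fitting the 2 compared groups alone gave 3 higher members at room temperature, 3 up and 3 down in the cold in controls, and 1 down in the arrays labelled knockout. With the array of conflicting labels among the 4 °C controls, there were 2 higher at room temperature, 0 lower at 4 °C, and 0 up and 0 down in the cold in controls. Adjusting over all probe sets gave 3 up and 2 down in the cold in controls and 1 up in the arrays labelled knockout. Testing the brighter probe sets alone gave 1 lower member at room temperature, Fdft1, and 6 up in the cold in the arrays labelled knockout, where fewer probe sets are tested. Quantile-normalizing again gave 1 down there. Leaving out each array gave 3 to 6 higher and 0 to 1 lower members at room temperature, and 7 to 10 and 1 to 2 at 4 °C. In the cold it gave 3 to 5 up and 2 to 7 down in controls, and 1 to 4 up and 0 to 1 down in the arrays labelled knockout. The interaction had 0 calls in every setting in which it was fitted. The cause of these moves was not tested. No measure of background was available in the values used, so how far dim probe sets limit folds was not tested; Mvd and Stard4 lie nearest to the median over probe sets among the members.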
